A study of Mus musculus with 6 samples.

Results

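Cd302 and 9 C-type lectin receptors of myeloid cells were followed across 6 mouse tumors. The 10 genes, Cd302, Clec7a, Clec4a1, Clec4a2, Clec4a3, Clec4d, Clec4e, Clec4n, Clec10a and Clec12a, were taken by their symbols from a table of 55487 genes, and each symbol matched 1 row. All 10 passed the filter on low counts. No measured value entered the choice of rows, although results from the same tumors were known when the set was put together. Cd302 was also among the genes the study chose to display from these tumors, so its direction here is not independent evidence.

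The tumors were subcutaneous grafts of CT26.WT, a colon carcinoma cell line from BALB/c mice, grown in immunocompetent male BALB/c mice that were 4 weeks old when bought. The control group (3 tumors) came from mice given 100 µL of PBS and the IFN-γ group (3 tumors) from mice given 100 µL of IFN-γ at 100 ng/ml, in both groups through the tail vein every 48 h. All tumors are labelled wild type, and the tumor cells of both groups came from the same line. Library totals ran from 15759300 to 17559680 counts on genes. A floor of 3 counts corresponded to 0.169 to 0.188 CPM (counts of a gene scaled to a common library total). This floor is an approximate upper limit for a gene counted at 0, not a hard bound, and covers counting error only. Tumor numbers are names only, and nothing in the labels says that control 1 and IFN-γ 1 belong together.

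C-type lectin receptors are membrane proteins whose extracellular lectin domain binds sugars or other ligands, in many cases with calcium. On macrophages, monocytes and dendritic cells they take up glycosylated particles and either activate the cell, through an immunoreceptor tyrosine-based activation motif (ITAM) of their own or of the adaptor FcRγ and the kinase Syk, or restrain it, through an inhibitory motif (ITIM) that recruits the phosphatases SHP-1 and SHP-2. Many of them are encoded side by side in gene clusters, which makes close relatives easy to compare. IFN-γ is a classical activator of macrophages, and GAS elements are DNA sites found at many genes that respond to it. PU.1 is a transcription factor that myeloid cells require.

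IFN-γ tumor 3 stood near the controls and apart from the other tumors of its group, and this touches most values below. The 20 IFN-γ response genes summed to 5382 and 5509 CPM for IFN-γ tumors 1 and 2, against 2434 CPM in IFN-γ tumor 3 and 1930 to 3287 CPM in the controls. The 7 skin keratinocyte genes summed to 76.8 CPM in that tumor and to 3.42 to 14.2 CPM in the other 5. The 6 skeletal muscle genes reached 840.1 CPM in control tumor 3 and 125.0 to 453.7 CPM elsewhere. Macrophage markers were strongly present in all 6 tumors, and none of the 12 markers was at 0. Their sum was 3417 to 4152 CPM in the controls, 5430 and 6608 CPM for IFN-γ tumors 1 and 2, and 3941 CPM in IFN-γ tumor 3. These are bulk tumors, so more cells of a type and more RNA per cell cannot be told apart, and the part of any of these lists in the results was not tested. The values of the 10 receptors, and the counts of calls in each list, are given with and without IFN-γ tumor 3. That tumor was singled out after its values were seen. A legend in the study counts fewer IFN-γ tumors than the labels do, and for its panel of upregulated genes also fewer controls. It does not say which tumors were left out.

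Of the 10 genes, 8 lie on chromosome 6 (GRCm38, GENCODE M21). Clec4a1, Clec4a3, Clec4a2, Clec4n, Clec4d and Clec4e lie, with gaps, in the stretch from 122921848 to 123289870. Clec12a (129342691 to 129365303) and Clec7a (129461591 to 129472779) lie apart from it, with 96287 bases between them. Clec10a is on chromosome 11 (70156197 to 70170834) and Cd302 on the minus strand of chromosome 2 (60251993 to 60284488). The next gene upstream of Cd302, on the same strand and 7614 bases away, is Ly75, which encodes the endocytic receptor DEC-205. The exons of none of the 10 genes overlap those of another gene in this annotation. Clec7a is listed there as a polymorphic pseudogene, a class for genes that are intact in some mouse strains and not in the reference strain.

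The promoters of 5 receptors that passed the test without IFN-γ tumor 3, and of Cd302, which did not, are shown next to allow them to be compared. RefSeq (GRCm38.p6) gave promoter windows, 250 bases before to 50 after a start site, for 8 of the 10 genes. Where a gene had several, 1 was chosen for print: for Clec4a3 the window with a motif match and for Clec7a the first. The windows are written 5′ to 3′ along the gene, and capitals mark matches, on either strand, to the PU.1 core GAGGAA, the GAS element TTCNNNGAA or the interferon-stimulated response element (ISRE) letters GAAANNGAA.
Cd302 promoter, chr2:60284435-60284734, minus strand: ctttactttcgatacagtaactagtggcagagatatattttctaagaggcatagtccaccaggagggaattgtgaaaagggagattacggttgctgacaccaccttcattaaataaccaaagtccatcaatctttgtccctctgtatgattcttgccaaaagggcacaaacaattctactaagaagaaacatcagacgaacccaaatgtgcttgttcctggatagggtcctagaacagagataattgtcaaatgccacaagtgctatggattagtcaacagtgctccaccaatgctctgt
Clec4a1 promoter, chr6:122921598-122921897, plus strand: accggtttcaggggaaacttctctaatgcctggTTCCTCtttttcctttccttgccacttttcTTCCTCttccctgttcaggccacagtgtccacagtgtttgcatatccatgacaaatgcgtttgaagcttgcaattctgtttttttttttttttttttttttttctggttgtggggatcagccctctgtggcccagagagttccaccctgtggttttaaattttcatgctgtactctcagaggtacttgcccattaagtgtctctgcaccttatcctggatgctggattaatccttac
Clec4a3 promoter, chr6:122952394-122952693, plus strand: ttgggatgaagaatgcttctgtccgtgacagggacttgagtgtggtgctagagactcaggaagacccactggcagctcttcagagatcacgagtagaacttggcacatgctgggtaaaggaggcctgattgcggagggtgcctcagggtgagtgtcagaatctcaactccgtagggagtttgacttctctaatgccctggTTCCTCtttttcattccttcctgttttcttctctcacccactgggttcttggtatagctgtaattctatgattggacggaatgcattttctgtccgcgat
Clec4a2 promoter, chr6:123122440-123122739, plus strand: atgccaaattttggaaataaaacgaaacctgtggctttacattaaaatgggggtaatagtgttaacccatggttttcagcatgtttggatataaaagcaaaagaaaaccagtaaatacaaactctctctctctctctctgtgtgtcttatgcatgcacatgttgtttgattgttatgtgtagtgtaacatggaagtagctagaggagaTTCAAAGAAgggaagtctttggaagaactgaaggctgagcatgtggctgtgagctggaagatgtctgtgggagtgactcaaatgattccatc
Clec12a promoter, chr6:129349994-129350293, plus strand: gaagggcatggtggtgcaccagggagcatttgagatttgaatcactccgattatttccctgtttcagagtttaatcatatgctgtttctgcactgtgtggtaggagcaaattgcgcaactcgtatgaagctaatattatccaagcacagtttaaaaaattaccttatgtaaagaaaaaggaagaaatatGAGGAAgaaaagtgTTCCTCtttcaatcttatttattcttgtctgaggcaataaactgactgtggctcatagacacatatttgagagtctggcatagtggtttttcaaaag
Clec7a promoter, chr6:129472730-129473029, minus strand: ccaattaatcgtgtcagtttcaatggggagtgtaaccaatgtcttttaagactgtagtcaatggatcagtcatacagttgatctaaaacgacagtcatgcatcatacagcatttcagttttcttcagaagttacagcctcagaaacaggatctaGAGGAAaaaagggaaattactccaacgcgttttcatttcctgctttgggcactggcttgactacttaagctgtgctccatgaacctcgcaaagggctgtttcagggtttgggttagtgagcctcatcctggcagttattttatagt

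The PU.1 core letters occurred in the windows of 6 of the 8 genes (Clec4a1, Clec4a3, Clec4d, Clec4e, Clec12a and Clec7a), against 31.3% of the 27025 genes in the RefSeq table. The GAS letters occurred in 1 of the 8, Clec4a2, at 42 to 34 bases before the start, as TTCAAAGAA, against 9.55% of all genes. The ISRE letters occurred in 1 of the 8, Clec4d, where the match overlaps a PU.1 core match, against 9.76% of all genes. The Cd302 window held none of the 3. The windows of the neighbours Clec4a1 and Clec4a3 shared the longest run between genes, 17 bases that include the PU.1 core match (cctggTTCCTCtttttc). The RefSeq starts of Clec4a2 and Clec12a lie 16262 and 7553 bases inside the GENCODE gene, so those windows stand for an internal start. A match is a description of letters and not of a bound site.

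The 10 receptors differed widely in level. Since a long transcript collects more reads, levels were compared between genes as CPM per kilobase of exon. Length was the union of a gene's exons over all its annotated transcripts. It ran from 1327 bases (Clec4a3) to 5528 (Clec12a), so the order depends partly on the annotation. In CPM not divided by length, the control mean of Clec12a (44.4) was above those of Clec4a2 (43.5) and Cd302 (17.6). Clec4n (59.1 CPM) was highest and Clec4e (3.35 CPM) lowest there too. In the controls, Clec4n, which encodes dectin-2, a receptor for fungal α-mannan, came first at 41.6 ± 3.94 CPM per kb (SD, n = 3). Clec4a3 and Clec4a1 followed at 35.1 ± 5.35 and 34.6 ± 2.20 CPM per kb, and the control tumors of these 3 genes overlapped in level from each to the next. Clec4a2 (14.9 ± 0.830), Cd302 (13.02 ± 1.42), Clec12a (8.03 ± 0.570) and Clec7a (6.30 ± 1.36 CPM per kb) came next, each separated from its neighbour in every control tumor. Clec10a (4.03 ± 1.18) and Clec4d (3.71 ± 1.53 CPM per kb) overlapped each other, and Clec10a also overlapped Clec7a. Clec4e was lowest, at 0.674 ± 0.226 CPM per kb.

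**Figure D1:**
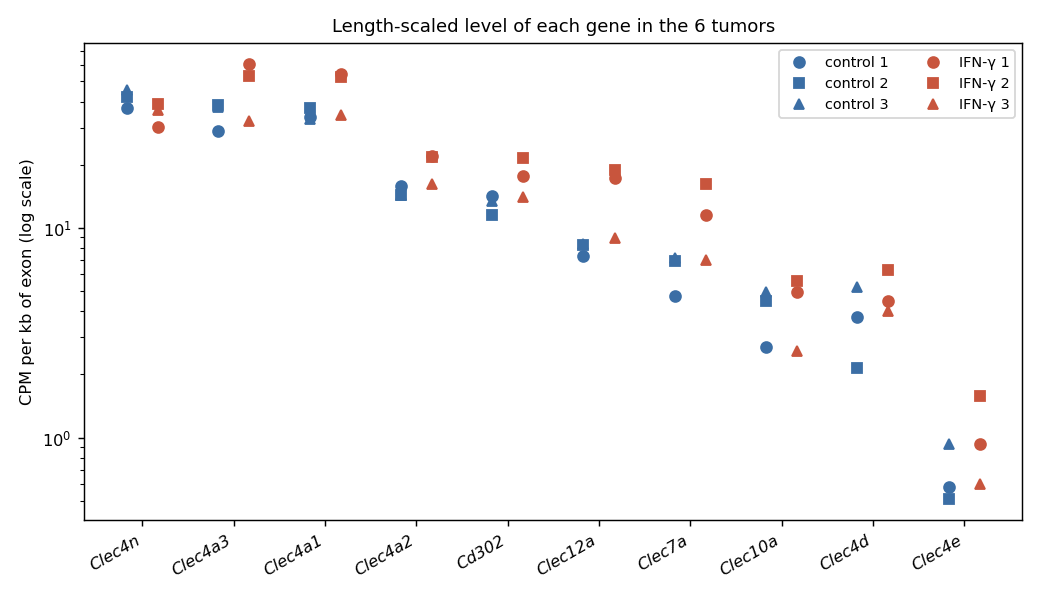
CPM per kilobase of exon (log scale) of each gene in every tumor, ordered by the control mean, with controls in blue and IFN-γ tumors in red; circles, squares and triangles are tumors 1, 2 and 3. Levels run from 41.6 CPM per kb for Clec4n to 0.674 CPM per kb for Clec4e in the controls.

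In the IFN-γ group the order of the means differed at the top. Clec4a3 (48.5 ± 14.5) and Clec4a1 (47.0 ± 10.7 CPM per kb; SD, n = 3) had the highest means and Clec4n followed at 35.2 ± 4.45 CPM per kb. IFN-γ tumor 3 alone kept Clec4n above both, at 36.3 CPM per kb against 32.2 for Clec4a3 and 34.7 for Clec4a1.

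The contrast of the study asked which genes differed after systemic IFN-γ. Of the 10 receptors, 9 had a higher fitted level in the IFN-γ group and 1, Clec4n, a lower one. The median log2 fold change of the 10 was 0.44 in the 6 tumors, against 0.00 over the 15114 genes tested, and 0.59 without IFN-γ tumor 3, against -0.02 over all genes tested. None of the 10 passed edgeR's quasi-likelihood test in all 6 tumors (adjusted p from 0.290 to 0.938), where 0.0794% of all genes tested passed as higher. At an unadjusted p under 0.05 there were 5 of the 10, and 1539 of the 15114 genes (10.2%).

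Without IFN-γ tumor 3, 5 of the 10 were called higher in the same test: Clec12a, Clec7a, Clec4a1, Clec4a2 and Clec4a3. Of all genes tested, 2.46% were called higher there. That tumor was singled out after its values were seen. Leaving it out raises the difference and narrows the spread for any gene where it lay near the controls. The adjusted p-values and calls of the 5 tumors, here and below, are therefore descriptive. With DESeq2 the counts were 1 of 10 in the 6 tumors (Clec12a, background 0.753%) and 6 of 10 in the 5 tumors (the same 5 and Cd302, background 4.4%). With limma-voom they were 0 of 10 and 5 of 10 (background 2.72% in the 5 tumors). With no filter on low counts, edgeR called 2 of 10 in the 6 tumors, Clec12a and Clec7a (background 0.558%). Simple separation, with every IFN-γ tumor above every control, held for 2 of 10, Clec12a and Clec4a2, against 7.62% of all genes tested.

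**Figure D2:**
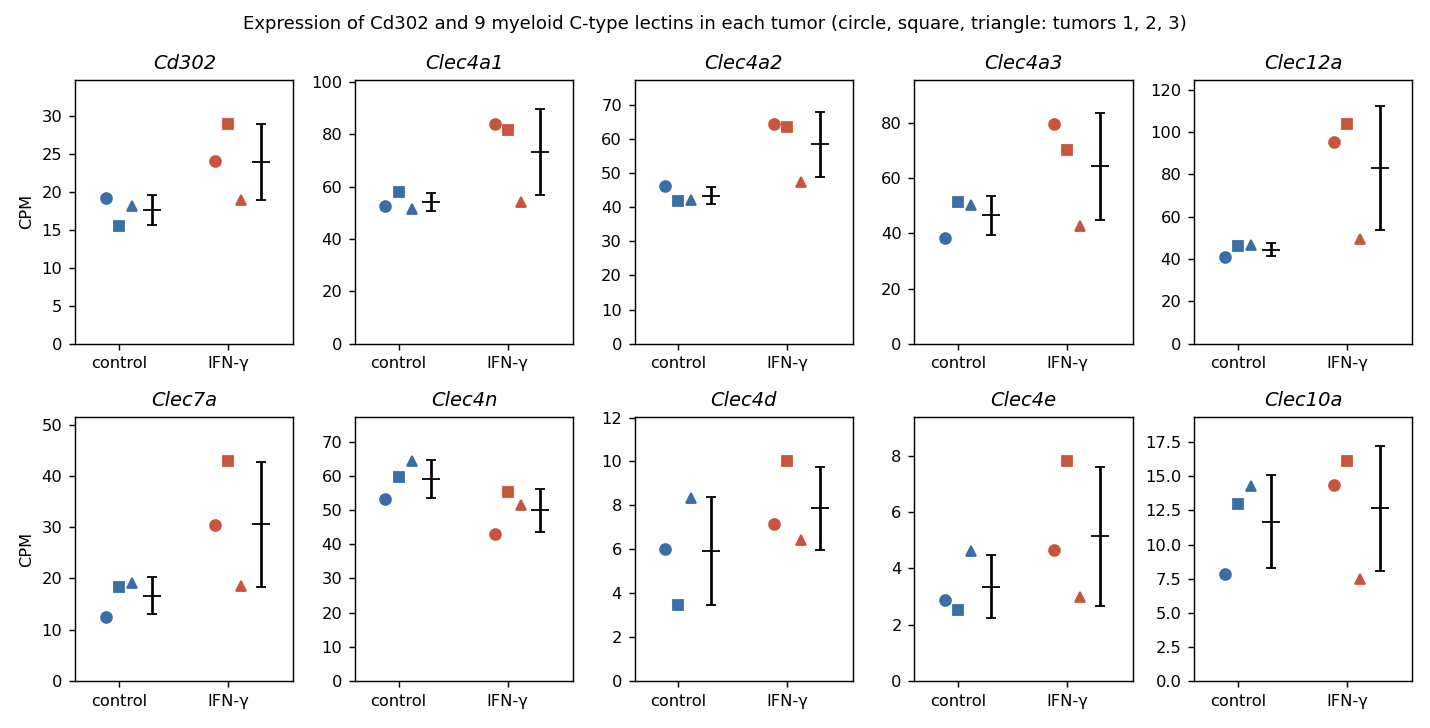
CPM of each gene in every tumor (circle, square and triangle are tumors 1, 2 and 3 of the group), with the group mean and SD as black bars; each panel has its own axis from 0. IFN-γ tumors 1 and 2 lie above all controls for Cd302, Clec4a1, Clec4a2, Clec4a3, Clec12a, Clec7a, Clec4e and Clec10a, and IFN-γ tumor 3 lies near or among the controls in every panel.

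Cd302 encodes a receptor with a single lectin domain found on macrophages and dendritic cells, where it has been linked to endocytosis, adhesion and migration. It stood at 19.3, 15.5 and 18.1 CPM in the controls and at 24.0, 29.0 and 19.0 CPM across IFN-γ tumors 1, 2 and 3. IFN-γ tumors 1 and 2 were above every control, and IFN-γ tumor 3 fell inside the control range. The fitted log2 fold change was 0.45 ± 0.17 (SE), which edgeR did not call (adjusted p = 0.406). Without IFN-γ tumor 3 it was 0.58 ± 0.14, and the tools divided there: edgeR gave an adjusted p of 0.0609, limma-voom 0.0570 and DESeq2 0.0169.

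Ly75, its neighbour on the chromosome, showed no such pattern. It ran from 61.4 to 72.4 CPM in the controls and from 63.8 to 68.0 CPM in the IFN-γ tumors, at a log2 change of -0.03 ± 0.08 over the 6 tumors and -0.06 ± 0.09 in the 5 (edgeR adjusted p = 0.941 and 0.829). Whether the fold changes of Cd302 and Ly75 differ was not tested.

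Cd302 was also set against the macrophage markers of the same tumor. The log2 ratio of Cd302 to the summed CPM of the 12 markers was -7.47, -7.98 and -7.84 in the controls, against -7.82, -7.83 and -7.70 in the IFN-γ tumors. The IFN-γ values all fell inside the control range, and the group means differed by -0.02 (two-sided exact permutation test, p = 1.0, 3 tumors against 3, where the smallest p possible is 0.1). Lyz2 made up 46.3% to 52.4% of the marker sum, and without it the difference was smaller still. Against Csf1r or Cd68 alone the difference was 0.16 or 0.09 on the log2 scale, with the groups again overlapping.

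The genes with the pattern most like that of Cd302 over the 6 tumors, by the root mean square difference of centred log2 CPM among 15113 genes, were Tnfrsf13b (0.0549), Gm4285 (0.0575), Gm28417 (0.0662), Clec2d (0.0722) and Hhex (0.0797). Clec2d is itself a C-type lectin. Among the other 9 receptors Clec4a2 was nearest, in place 29 (0.109), followed by Clec4a1 in place 262 (0.174). The pattern of Clec10a was the farthest of the 9 (0.415).

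Clec12a encodes MICL, an inhibitory receptor with an ITIM that recognizes uric acid crystals and restrains myeloid activation. It had the largest fitted difference of the 10 in both fits. Its level was 40.8, 45.9 and 46.5 CPM in the controls and 95.3, 103.9 and 49.3 CPM across IFN-γ tumors 1, 2 and 3. The groups did not overlap, but IFN-γ tumor 3 exceeded the highest control by a small margin only, with a log2 ratio to the control mean of 0.15 against 1.10 and 1.23 in the other tumors of its group. The log2 fold change was 0.90 ± 0.24 (edgeR adjusted p = 0.290) in the 6 tumors and 1.16 ± 0.09, or 2.23-fold, in the 5 (edgeR adjusted p = 0.00136), where it had the 4th smallest p among genes higher in the IFN-γ group.

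Clec4a2 encodes DCIR, an ITIM-bearing receptor of dendritic cells, monocytes and macrophages. Its level was 46.3, 42.0 and 42.1 CPM in the controls and 64.6, 63.5 and 47.5 CPM in the IFN-γ tumors, again without overlap. The log2 fold change of Clec4a2 was 0.43 ± 0.12 in the 6 tumors (edgeR adjusted p = 0.317) and 0.55 ± 0.08 in the 5 (edgeR adjusted p = 0.0162). Of its 50-base windows of transcript sequence, 6.83% were shared with other genes, mainly Clec4a4, which was listed at under 0.5 CPM in every tumor.

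Clec4a1 and Clec4a3 encode other members of the DCIR family. Clec4a1 stood at 52.6, 57.8 and 51.4 CPM in the controls and at 84.0, 81.5 and 54.0 CPM in the IFN-γ tumors. Clec4a3 stood at 38.4, 51.2 and 50.2 CPM in the controls and at 79.9, 70.4 and 42.7 CPM in the IFN-γ tumors. For both, IFN-γ tumors 1 and 2 were above every control and IFN-γ tumor 3 lay inside the control range. Neither shared a 50-base window with another gene.

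The fitted log2 fold change of Clec4a1 was 0.44 ± 0.16 in the 6 tumors (edgeR adjusted p = 0.394) and 0.61 ± 0.08 in the 5 (edgeR adjusted p = 0.0123). For Clec4a3 it was 0.46 ± 0.22 (edgeR adjusted p = 0.515) and 0.68 ± 0.13 (edgeR adjusted p = 0.0305). Ratios within the DCIR family differed by less than the spread between tumors. The mean log2 ratio of Clec4a1 to Clec4a2 was 0.31 ± 0.14 among the controls and 0.31 ± 0.11 among the IFN-γ tumors (SD, n = 3 each), and that of Clec4a1 to Clec4a3 was 0.22 ± 0.21 and 0.21 ± 0.13.

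Clec7a encodes dectin-1, the β-glucan receptor, which carries its own ITAM-like motif. It stood at 12.5, 18.3 and 19.0 CPM in the controls and at 30.4, 42.9 and 18.4 CPM across IFN-γ tumors 1, 2 and 3. IFN-γ tumor 2 exceeded the highest control by more than any other tumor did, and IFN-γ tumor 3 fell among the controls. The log2 fold change of Clec7a was 0.88 ± 0.29 in the 6 tumors (edgeR adjusted p = 0.371) and 1.13 ± 0.20, or 2.18-fold, in the 5 (edgeR adjusted p = 0.0247).

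Clec4n (dectin-2), Clec4d (MCL) and Clec4e (mincle) are activating receptors encoded in the same stretch of chromosome 6. They signal through FcRγ, and MCL and mincle recognize mycobacterial glycolipid. None of the 3 passed the test in the 6 tumors, nor in the 5.

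Clec4n was the only one of the 10 with a lower fitted level in the IFN-γ group. It stood at 53.2, 59.8 and 64.3 CPM in the controls and at 43.0, 55.3 and 51.5 CPM in the IFN-γ tumors. Only IFN-γ tumor 2 reached into the control range. The log2 fold change was -0.24 ± 0.11 in the 6 tumors (edgeR adjusted p = 0.515) and -0.28 ± 0.12 in the 5 (edgeR adjusted p = 0.323).

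Clec4d stood at 6.002, 3.44 and 8.34 CPM in the controls and at 7.14, 10.02 and 6.43 CPM in the IFN-γ tumors, with only IFN-γ tumor 2 outside the control range. Its log2 fold change was 0.41 ± 0.32 (edgeR adjusted p = 0.731). Clec4e stood at 2.88, 2.54 and 4.63 CPM in the controls and at 4.64, 7.82 and 2.97 CPM in the IFN-γ tumors, with a log2 fold change of 0.62 ± 0.38 (edgeR adjusted p = 0.641). The controls of these low genes varied more than those of the others, with a coefficient of variation of 41.4% for Clec4d and 33.5% for Clec4e, where counting error alone gives 9.95% and 13.2%. Without IFN-γ tumor 3, the log2 fold changes were 0.52 ± 0.33 for Clec4d and 0.88 ± 0.33 for Clec4e (edgeR adjusted p = 0.502 and 0.218).

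Clec10a encodes Mgl1, a receptor for galactose and N-acetylgalactosamine that is used as a marker of alternatively activated macrophages. It stood at 7.82, 12.97 and 14.3 CPM in the controls and at 14.4, 16.1 and 7.48 CPM in the IFN-γ tumors. IFN-γ tumor 3 had the lowest value of the 6 tumors and IFN-γ tumor 2 the highest. The log2 fold change of Clec10a was 0.11 ± 0.31 in the 6 tumors (edgeR adjusted p = 0.938) and 0.37 ± 0.23 in the 5 (edgeR adjusted p = 0.498).

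Mgl2, the close relative of Clec10a, had the opposite sign, at a log2 change of -0.83 ± 0.38 over the 6 tumors and -0.57 ± 0.34 in the 5 (edgeR adjusted p = 0.508 and 0.474). The log2 ratio of Clec10a to Mgl2 was -0.73, -0.50 and -1.05 for the controls and 0.51, -0.12 and 0.16 for the IFN-γ tumors, without overlap. This ratio was looked at after other values were seen. The 2 genes share transcript sequence (9.02% of the 50-base windows of Clec10a were found in other genes, nearly all in Mgl2), so reads may have been divided between them.

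**Figure D3:**
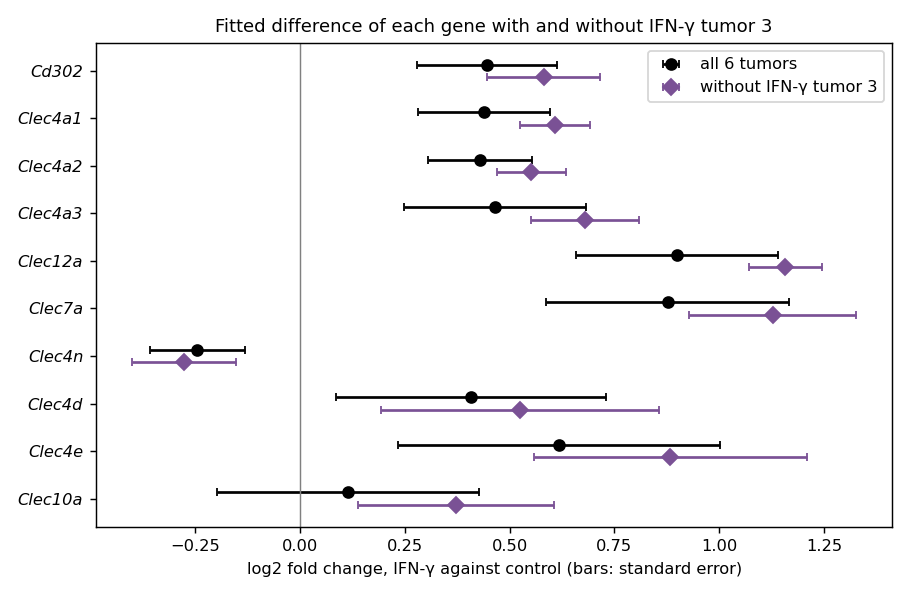
Fitted log2 fold change of each gene, IFN-γ against control, in all 6 tumors (black circles) and without IFN-γ tumor 3 (purple diamonds), with standard errors as bars. Clec12a and Clec7a lie farthest to the right in both fits, at 0.90 and 0.88 with all tumors, and Clec4n alone lies left of 0.

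The receptors were next set against the macrophage markers of their own tumor. On the scale of log2 ratio to the sum of the 12 markers, Clec12a was at -6.39, -6.42 and -6.48 in the controls and at -5.83, -5.99 and -6.32 in IFN-γ tumors 1, 2 and 3, higher in all 3. Clec7a was at -8.09, -7.74 and -7.77 in the controls and at -7.48, -7.27 and -7.74 in the IFN-γ tumors, where IFN-γ tumor 3 matched the highest control almost exactly. These were 2 of the 10 receptors with every IFN-γ tumor above every control on this scale, against 0.589% of all genes tested. Without Lyz2 in the sum, Clec12a stayed separate and Clec7a did not.

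Clec4n was lower on this scale. Its log2 ratio to the markers was -6.00, -6.03 and -6.01 in the controls, the tightest of the 10, and -6.98, -6.90 and -6.26 in IFN-γ tumors 1, 2 and 3, lower in all 3 and by 0.70 in the mean. It was the 1 receptor of 10 with every IFN-γ tumor below every control, against 21.8% of all genes tested, a share for which the marker sum is the denominator of every gene. For the other 7 receptors, Cd302, Clec4a1, Clec4a2, Clec4a3, Clec4d, Clec4e and Clec10a, the groups overlapped. The difference in mean log2 ratio was within 0.04 of 0 for Cd302 and the 3 genes of the DCIR family. For Clec4d and Clec4e it was 0.02 and 0.11, and for Clec10a -0.36. These small differences depended on the denominator. Against Csf1r alone they were 0.14, 0.15 and 0.16 for Clec4a1, Clec4a2 and Clec4a3, 0.20 and 0.29 for Clec4d and Clec4e, and -0.18 for Clec10a, while Clec12a (0.56), Clec7a (0.55) and Clec4n (-0.52) kept their direction.

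**Figure D4:**
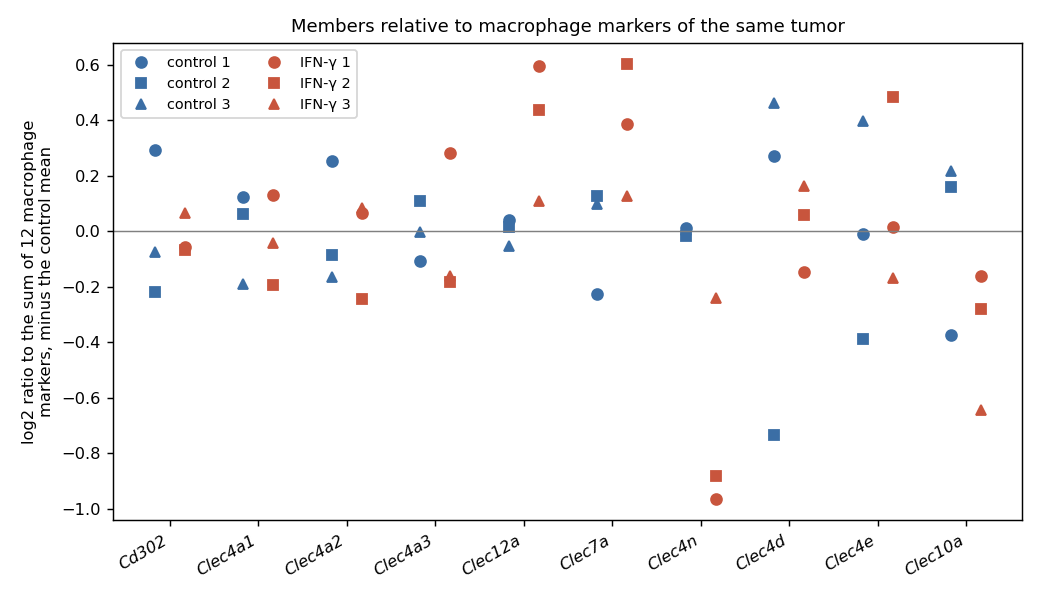
Log2 ratio of each gene to the summed CPM of 12 macrophage markers of the same tumor, minus the control mean of the gene, with controls in blue and IFN-γ tumors in red (circle, square and triangle are tumors 1, 2 and 3). Clec12a is higher and Clec4n lower in all 3 IFN-γ tumors, with IFN-γ tumor 3 nearest the controls, and Cd302 and the DCIR family straddle 0. Of all genes tested, 0.589% had every IFN-γ tumor above every control on this scale and 21.8% every IFN-γ tumor below.

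Clec12a and Clec4n can be compared with no marker list. The log2 ratio of Clec12a to Clec4n was -0.38, -0.38 and -0.47 in the controls and 1.15, 0.91 and -0.06 in IFN-γ tumors 1, 2 and 3. In the controls Clec4n had the higher CPM, and in IFN-γ tumors 1 and 2 Clec12a did. This pair was picked after its values were seen and the ratio has no test.

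The signalling list held adaptors, kinases and phosphatases next to these receptors. Of 22 signalling genes, none passed edgeR's test in the 6 tumors, 6 had an unadjusted p under 0.05 (27.3% of the list, against 10.2% of all genes tested), DESeq2 called 1 and limma-voom none. Without IFN-γ tumor 3, 5 rose and none fell, Fcer1g, Tyrobp, Ptpn6 and Plcg2 among them, which is 22.7% of the list against the 2.46% of all genes called higher in that fit. The median log2 fold change of the 22 was 0.16 in the 6 tumors and 0.28 in the 5.

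Fcer1g, which encodes the FcRγ chain that dectin-2, MCL and mincle use, was at 43.9 to 48.02 CPM in the controls and at 73.4, 77.8 and 52.8 CPM across IFN-γ tumors 1, 2 and 3, with no overlap. Its log2 fold change was 0.57 ± 0.14 in the 6 tumors (edgeR adjusted p = 0.257) and 0.71 ± 0.08 in the 5 (edgeR adjusted p = 0.00935). Tyrobp, the gene of the ITAM adaptor DAP12, showed fitted log2 changes of 0.53 ± 0.16 and 0.68 ± 0.10 in the same fits (edgeR adjusted p = 0.330 and 0.0167). For Ptpn6, which encodes SHP-1, the values were 0.44 ± 0.19 and 0.63 ± 0.10 (edgeR adjusted p = 0.474 and 0.0184).

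Ptpn11, which encodes SHP-2, was measured at 226.0 to 244.1 CPM in the controls, 226.6 to 236.8 CPM among the IFN-γ tumors, with a log2 fold change of -0.04 ± 0.07. Nfkb1, at 0.06 ± 0.08, and Src, at -0.10 ± 0.09, also had fold changes near 0, and Relb was at -0.15 ± 0.08. Ptpn11, Nfkb1, Src and Relb are expressed in many cell types. In the 5 tumors the values were -0.07 ± 0.08 for Ptpn11, 0.07 ± 0.08 for Nfkb1, -0.20 ± 0.07 for Src and -0.15 ± 0.09 for Relb. None of these 4 passed edgeR's test in either fit.

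Genes that dectin-1, dectin-2 or mincle are known to induce formed the next list. Of 20, 17 were tested, none passed edgeR's test in the 6 tumors, 1 had an unadjusted p under 0.05, and DESeq2 and limma-voom called none. Without IFN-γ tumor 3, 1 of the 17 rose and 1 fell, where 2.46% of all genes tested were called higher and 0.723% lower. Ccl4, a chemokine of activated macrophages, rose, with a log2 fold change of 1.05 ± 0.22 (edgeR adjusted p = 0.0452), and Ptgs2, which encodes cyclooxygenase-2, fell by 0.56 on the log2 scale ± 0.11 (edgeR adjusted p = 0.0327).

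In the 6 tumors Ptgs2 did not pass the test, although every IFN-γ tumor was below every control (89.4 to 119.0 against 120.8 to 152.7 CPM, log2 fold change -0.41 ± 0.13, edgeR adjusted p = 0.369). Il1b, the gene of interleukin-1β, had a log2 fold change of 0.15 ± 0.13 and Cxcl1, a neutrophil chemokine, 0.60 ± 0.28. Egr2, an immediate early transcription factor, was at -0.20 ± 0.30 and Csf2, which encodes GM-CSF, at -0.65 ± 0.38. In the 5 tumors they were 0.18 ± 0.13 for Il1b, 0.80 ± 0.23 for Cxcl1, -0.02 ± 0.28 for Egr2 and -0.95 ± 0.43 for Csf2. None of these 4 passed edgeR's test in either fit.

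Other C-type lectins of myeloid, dendritic and endothelial cells gave no call. Of 30, 29 were in the table and 19 were tested in the 6 tumors, 20 in the 5, and edgeR called none in either fit (4 of the 19 had an unadjusted p under 0.05). DESeq2 and limma-voom called none in the 6 tumors, and DESeq2 called 2 in the 5. Their median log2 fold change was 0.05 and 0.28 in the 2 fits, against 0.44 and 0.59 for the 10 receptors. The difference between these sets was not tested.

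Mrc1, which encodes the mannose receptor CD206 and had the highest CPM of these lectins, was lower in every IFN-γ tumor than in every control, at 390.8 to 432.5 CPM against 321.8 to 369.3 CPM (log2 fold change -0.22 ± 0.08 in the 6 tumors and -0.16 ± 0.08 in the 5, edgeR adjusted p = 0.437 and 0.358). Clec2d, which encodes the ligand of an inhibitory natural killer cell receptor, was higher in every IFN-γ tumor, at a log2 change of 0.36 ± 0.12 over the 6 tumors and 0.45 ± 0.11 in the 5 (edgeR adjusted p = 0.389 and 0.0615). So was Clec4b1, at 0.90 ± 0.27 and 1.02 ± 0.27 (edgeR adjusted p = 0.333 and 0.0975), with 2.26 to 3.31 CPM in the controls and 4.21 to 6.73 CPM in the IFN-γ tumors. Cd93, at 0.10 ± 0.16 and 0.26 ± 0.10 (edgeR adjusted p = 0.874 and 0.214), overlapped between the groups.

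Marker lists of cells known to carry these receptors were read in the same fits. Of the 12 macrophage markers none passed edgeR's test in the 6 tumors and 8 rose in the 5, against 0.0794% and 2.46% of all genes called higher, with a median log2 fold change of 0.49 and 0.62. Csf1r, the receptor for macrophage colony stimulating factor, showed a fitted log2 change of 0.29 ± 0.14 in the 6 tumors and 0.42 ± 0.09 in the 5 (edgeR adjusted p = 0.543 and 0.0507). Of the 11 dendritic cell markers none passed in either fit, and their sum was 48.2 to 69.7 CPM in the controls and 86.0, 94.0 and 53.4 CPM in the IFN-γ tumors. Of the 8 monocyte markers 7 were tested, none passed in the 6 tumors and 1, Ccr2, rose in the 5, with a median log2 fold change of 0.49 and 0.79. Ccr2, the chemokine receptor of inflammatory monocytes, was at 97.7 to 141.2 CPM in the controls and at 261.6, 264.1 and 116.0 CPM across IFN-γ tumors 1, 2 and 3 (log2 fold change 1.20 ± 0.14 in the 5 tumors, edgeR adjusted p = 0.00964). The summed level of the list, 2931 to 3742 CPM in the controls against 2695 to 3133 CPM, is mostly Fn1, which tumor cells and fibroblasts also express. Of the 9 neutrophil markers 5 were tested in the 6 tumors, where none passed, and 7 in the 5, where 1, Csf3r, rose. Csf3r made up most of their sum, 30.1 to 40.0 CPM in the controls against 37.0 to 48.3 CPM, while Ly6g and Camp were at 0 in some tumors of both groups, and the list's median log2 fold change was 0.16 in the 6 tumors and -0.17 in the 5.

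Lists of other cells were read in the same way. The 8 adipocyte markers summed to 112.1 to 152.2 CPM in the controls and to 157.9, 212.8 and 183.5 CPM across IFN-γ tumors 1, 2 and 3, without overlap and with IFN-γ tumor 3 included. None of the 8 passed edgeR's test in the 6 tumors, where 7 had an unadjusted p under 0.05, and 4 rose in the 5, with a median log2 fold change of 2.17 and 2.15. The 9 T cell markers summed to 62.8 to 93.1 CPM in the controls, 118.8 and 144.4 CPM for IFN-γ tumors 1 and 2, and 48.7 CPM in IFN-γ tumor 3. None of the 9 passed in either fit, with a median log2 fold change of 0.45 and 0.81. No tested marker of B cells, mast cells, endothelial cells, fibroblasts, keratinocytes or skeletal muscle passed in either fit. Median log2 fold changes in the 6 and the 5 tumors were -1.35 and -1.12 for B cells, which summed to at most 13.8 CPM. They were -0.20 and -0.11 for endothelial cells, 0.06 and -0.07 for mast cells, and 0.03 and 0.14 for fibroblasts. For muscle they were -0.28 and 0.05, and for the 2 tested keratinocyte markers 0.89 and -0.59. In the 6 tumors 2 B cell and 2 endothelial markers, all lower, and 1 mast cell marker, higher, had an unadjusted p under 0.05. Of the 6 B cell markers 4 were tested in the 6 tumors and 5 in the 5. Of the 7 keratinocyte markers only 2 were tested in each fit, so the others could not pass. The part of any of these markers in the levels of the 10 receptors was not tested, beyond the ratios given above.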

How the data were processed

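RNA from 6 subcutaneous CT26.WT tumors (3 control, 3 IFN-γ) was sequenced. The authors deposited whole-number counts per gene, not normalized. HISAT2 and the build mm10 are named in the submitters' processing notes, while the counting program, annotation and use of strand are not given in the sources used here, so genes sharing sequence are uncertain. CPM were computed with TMM factors, and counts were tested with edgeR 4.0.16 (R 4.3.3; filterByExpr, quasi-likelihood test, Benjamini-Hochberg adjustment over all genes tested, threshold 0.05), with no covariate. The standard error is the size of the log2 fold change divided by the square root of F. DESeq2 1.42.0, limma-voom 3.58.1, other normalizations and filters, a replicate block and leaving out each tumor were alternatives. DESeq2 and limma-voom without IFN-γ tumor 3, and the marker sum without Lyz2, were added after seeing the data.

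The 10 genes and the lists were chosen with earlier results of these data known. Named beside the 10 were, per list, the 4 genes with the highest mean CPM, the 2 smallest p in each direction, any gene past the threshold in the 6 tumors, Ly75, and the 5 genes most like Cd302 (prior count 2). Other genes (Plcg2, Ccr2, Csf3r, Fn1, Ly6g, Camp, Csf1r, Cd68, Lyz2, Clec4a4) were named after their values were seen, and 1 gene of the signalling list is not reported here. Exon lengths come from GENCODE M21, which held 99.4% of the identifiers, and promoters from RefSeq. The labels do not say that the tumors came from separate mice. The p-values set the group difference against the spread between these tumors, which may be technical. On simulated counts, 200 genes were changed 2-fold. Of these edgeR recovered 67.0% over 14910 genes (6 tumors, 13 false calls) and 73.0% over 15242 genes (5 tumors, 16 false calls). Smaller changes were not simulated, nor was a tumor that stands apart from its group, so these shares do not carry over to such cases.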

Additional observations from a re-analysis of the deposited data

How the results depend on the processing

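Over all genes, 17 passed the threshold in the 6 tumors, against 184 with DESeq2, 11 by library size only, 220 with no filter on low counts and 11 with a mean CPM of at least 1. Leaving out 1 tumor gave 6 to 493, the highest without IFN-γ tumor 3, where DESeq2 gave 828 and limma-voom 529. Of the 10 receptors, 0 passed in the 6 tumors, 1 with DESeq2, 2 with no filter, 0 to 5 with 1 tumor left out, and without IFN-γ tumor 3 there were 6 with DESeq2 and 5 with limma-voom. For the 22 signalling genes these numbers were 0, 1, 2, 0 to 5, 9 and 6. For the genes these receptors induce they were 0 to 2 with 1 tumor left out, and 4 and 2 without IFN-γ tumor 3. Among the other lectins only DESeq2 without IFN-γ tumor 3 gave calls, 2. The causes were not tested.

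Deviations from the group means correlated at -0.205, -0.0135 and -0.214 between control and IFN-γ tumors of equal number, which gives no pairing. A replicate block gave 7 calls over all genes and 0 among the 10 receptors. The group difference in the Cd302 ratio to macrophage markers, -0.02 against the 12 markers, was 0.16 against Csf1r and 0.087 against Cd68. With 1 tumor left out it ran from -0.13 to 0.13. These are smaller in size than 0.26, the SD of the controls against the 12 markers. Without control tumor 1, however, the difference was 0.13 and the SD of the remaining controls 0.10, with every IFN-γ tumor above them. The log2 fold change of Clec10a ran from -0.10 to 0.37 with 1 tumor left out, and was negative without control tumor 1 (-0.10) or IFN-γ tumor 2 (-0.10). Of 150 comparisons of single receptors with an alternative, 129 kept direction and side of the threshold, 19 passed only under the alternative and 2 changed sign. At these depths Clec4e (45 to 128 counts per tumor) is the least precise of the 10.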
